A study of Mus musculus with 25 samples.

Results

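The genes described here encode the proteasome, its interferon-inducible variant (the immunoproteasome), its activators and its assembly factors, measured as RNA in mouse peritoneal macrophages of 6 genotypes. They were taken as every gene whose symbol starts with Psm followed by a letter from a to g and a digit. Of 51 such symbols in the deposited table, 1 pseudogene and 1 gene that is not reported were left out, which left 49 of the 13266 genes. The rule used names alone and no measured value, but it was set with earlier results of these data known. Of the 49, 5 formed the immunoproteasome group, 30 the constitutive group (14 subunits of the core particle and 16 of the regulatory particle) and 14 were other members, 7 of them assembly chaperones.

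Total RNA was sequenced from 25 libraries of untreated peritoneal macrophages, all at day 0. There were 5 wild-type (WT) libraries and 4 each of SAMHD1 KO, MDA5 KO, RIG-I KO, the double knockout SAMHD1 MDA5 DKO and the double knockout SAMHD1 RIG-I DKO. SAMHD1 is a dNTP-cleaving enzyme encoded by Samhd1, and MDA5 (gene Ifih1) and RIG-I (gene Ddx58) are cytosolic RNA sensors upstream of type I interferon. The design sets loss of SAMHD1 beside its loss in cells that also lack one sensor. No group received an agent. How the alleles were made and the strain, age and sex of the animals are not given in the sources used here. Of the SAMHD1 KO titles, 2 read SAMHD1_DEL and 2 read SAMHD1_KO. Nothing in the labels says that the libraries came from separate animals, so p-values measure the spread between libraries, which may be partly technical.

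The proteasome is a barrel-shaped protease that degrades ubiquitin-tagged proteins. The core particle is built of alpha rings, which gate the channel, and beta rings, which hold the catalytic sites of Psmb5, Psmb6 and Psmb7. The regulatory particle recognises and unfolds substrates with a ring of ATPases (Psmc genes) and a set of non-ATPase subunits (Psmd genes). Interferon induces Psmb8, Psmb9 and Psmb10, which take the places of Psmb5, Psmb6 and Psmb7 in newly built core particles, and Psme1 and Psme2, the alpha and beta chains of the PA28 activator cap. The immunoproteasome makes many of the peptides that MHC class I molecules present, and macrophages are known to express it without stimulation.

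Reads recovered from the deposited values, summed over the 13266 genes listed there, numbered 25886469 to 39590589 per library. Reads outside those genes are not included. The targeted genes were checked first, in read counts normalized for depth (normalized counts). Samhd1 lay between 6486 and 13120 in the genotypes with the gene intact. In the genotypes that lack it, Samhd1 lay between 1069 and 1852, except for SAMHD1 KO 2 at 4767 and SAMHD1 MDA5 DKO 3 at 4952, which were intermediate. Ifih1 was at most 14.9 in the genotypes lacking MDA5 and at least 1411 elsewhere, and Ddx58 was at most 304 in the genotypes lacking RIG-I and at least 1109.8 elsewhere. SAMHD1 KO 2 and WT 3 stood apart on the first principal component of all genes (20.2% of the variance), with scores of 63.9 and 50.9 against −25.7 to 20.7 for the others. Library numbers follow the column order of the deposited table, since its column names give the genotype and a code that no label explains. The codes of WT 3 and SAMHD1 KO 2 end in 126307 and 126308, the highest of all. Those of the other WT libraries end in 126284 to 126287, and those of the other SAMHD1 KO libraries in 126296 to 126298. What the codes stand for is not given, and their part in the result was not tested. Marker genes of macrophages were abundant in every library (9 of 9 measured), with a summed normalized count of 1650893 to 2292438 outside the libraries that stood apart, 1010335 in WT 3 and 1070847 in SAMHD1 KO 2. Of these genes Lyz2 alone ran from 597160 to 1897768, and no other marker exceeded 212882. The sums therefore follow mainly Lyz2 and do not measure the share of macrophages.

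Promoter sequence is shown for 5 described members that hold a match to a searched motif, chosen with the matches known: the inducible catalytic subunit Psmb8, the constitutive catalytic subunits Psmb5 and Psmb6, the cap subunit Psme1 and the chaperone gene Psmg4. Sequences were taken from RefSeq (GRCm38.p6), which held 45 promoters for 41 of the 49 members, each running from 250 bases before the annotated start to 50 after it. Each promoter was searched on both strands for 3 motifs, and no matches overlapped in the stretches shown. Capitals mark the match, read 5′ to 3′ in the gene's direction. Psmb8 (chr17:34197945-34198194, plus strand) holds a GAS motif (TTCNNNGAA, known from interferon-inducible promoters), Psmb5 (chr14:54617996-54618245, minus strand) and Psmb6 (chr11:70525107-70525356, plus strand) hold an antioxidant response core (TGACNNNGC), and Psme1 (chr14:55578493-55578522, plus strand) and Psmg4 (chr13:34162970-34162999, plus strand) hold an interferon response core (2 copies of GAAA with any 2 bases between them).
Psmb8: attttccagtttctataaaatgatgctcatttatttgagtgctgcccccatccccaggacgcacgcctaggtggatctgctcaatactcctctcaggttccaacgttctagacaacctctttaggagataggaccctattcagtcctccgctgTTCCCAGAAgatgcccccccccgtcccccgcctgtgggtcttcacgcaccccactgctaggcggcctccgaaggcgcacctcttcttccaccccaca
Psmb5: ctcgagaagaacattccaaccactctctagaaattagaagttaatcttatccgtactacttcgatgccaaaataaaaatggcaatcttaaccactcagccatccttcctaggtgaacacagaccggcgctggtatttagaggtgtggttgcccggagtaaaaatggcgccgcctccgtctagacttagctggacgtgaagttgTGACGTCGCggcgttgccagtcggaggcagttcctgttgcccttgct
Psmb6: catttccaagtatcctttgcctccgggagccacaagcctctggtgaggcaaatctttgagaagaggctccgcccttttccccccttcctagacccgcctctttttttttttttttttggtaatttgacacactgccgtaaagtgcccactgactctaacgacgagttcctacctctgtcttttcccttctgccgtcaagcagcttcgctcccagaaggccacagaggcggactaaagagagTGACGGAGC
Psme1: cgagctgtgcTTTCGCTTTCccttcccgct
Psmg4: cgcgcatctGAAAGTGAAAgagcgttccgc
The match starts 97 bases before the RefSeq start in Psmb8, 47 before it in Psmb5 and 9 before it in Psmb6, and 10 bases after it in Psme1 and 16 after it in Psmg4. In GENCODE, Psmb8 and Psme1 start earlier, at 34197721 and 55578123, so the whole stretch shown for each lies inside its GENCODE gene. Sequence before those GENCODE starts is not shown. Psmb5 also starts earlier in GENCODE, at 54618022, so the last bases of its stretch lie inside the gene and its match lies before that start. The interferon response core occurred in 3.44% of all 32851 promoters and, among members, also in Psmb3, Psmd4 and Psmd9. The GAS motif occurred in 8.3% of all promoters and also in Psmd2 and Psmg1. The antioxidant response core occurred in 12.4% and also in Psmc6, Psmd12, Psmd9 and Psme4. Among the 5 immunoproteasome genes, the interferon response core was found in Psme1 alone, the GAS motif in Psmb8 alone and the antioxidant response core in 0, so Psmb9, Psmb10 and Psme2 held none of these letters in the window searched. A match describes these letters and is no evidence of a bound site.

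Immunoproteasome RNA was among the most abundant proteasome RNA in unstimulated wild-type macrophages. Divided by coding length, the normalized count per coding kilobase averaged 4797 for Psmb4, a core beta subunit that ranked 1 of 49, 4796 for Psme1, which ranked 2, and 4744 for Psmb8, which ranked 3. The 5 WT libraries spanned 2748 to 5653 for Psmb4 and 3195 to 5932 for Psmb8, so these ranks do not separate beyond the spread. On the same per-length scale Psmb8 stood above its constitutive counterpart Psmb5 (2018, rank 21), and Psmb10 (3878, rank 5) above Psmb7 (2078, rank 20). Psmb9 (2142, rank 18) lay close to Psmb6 (2320, rank 14), and Psme2 (3407) ranked 7. Psma8, the testis alpha subunit, was lowest at 56.3 per coding kilobase (41.4 to 69.3 in the WT libraries).

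With both sensors intact, no proteasome gene passed the test for loss of SAMHD1. Psmb8, which carries the chymotrypsin-like site of the immunoproteasome (chromosome 17, 34197721 to 34201454, GRCm38, plus strand), had normalized counts of 4177, 3638, 2645, 4267 and 4911 in WT and of 4311, 2482, 4244 and 4151 in SAMHD1 KO. The ranges overlapped almost completely, and each genotype had 1 low library, WT 3 and SAMHD1 KO 2. The log2 fold change of Psmb8 was −0.05 (95% interval −0.43 to 0.32, limma). It was −0.03 for Psmb9 (−0.39 to 0.34), −0.01 for Psmb10 (−0.36 to 0.33), −0.01 for Psme1 (−0.30 to 0.27) and −0.09 for Psme2 (−0.45 to 0.27). Of the 49 members, 0 passed an adjusted p of 0.05 (limma, Benjamini-Hochberg over 13252 genes), against 0.0151% of all genes. At an unadjusted p under 0.05 the count was also 0 (4.76% of all genes), and limma-voom on the recovered reads also called 0. The smallest p-values belonged to Psmc3ip (−0.66, −1.38 to 0.05) and the lid gene Psmd12 (0.09, −0.08 to 0.25). The median log2 fold change was −0.03 over the immunoproteasome genes and −0.02 over the constitutive ones. In bulk RNA such as this, fewer cells of a type and less RNA per cell cannot be told apart.

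**Figure D1:**
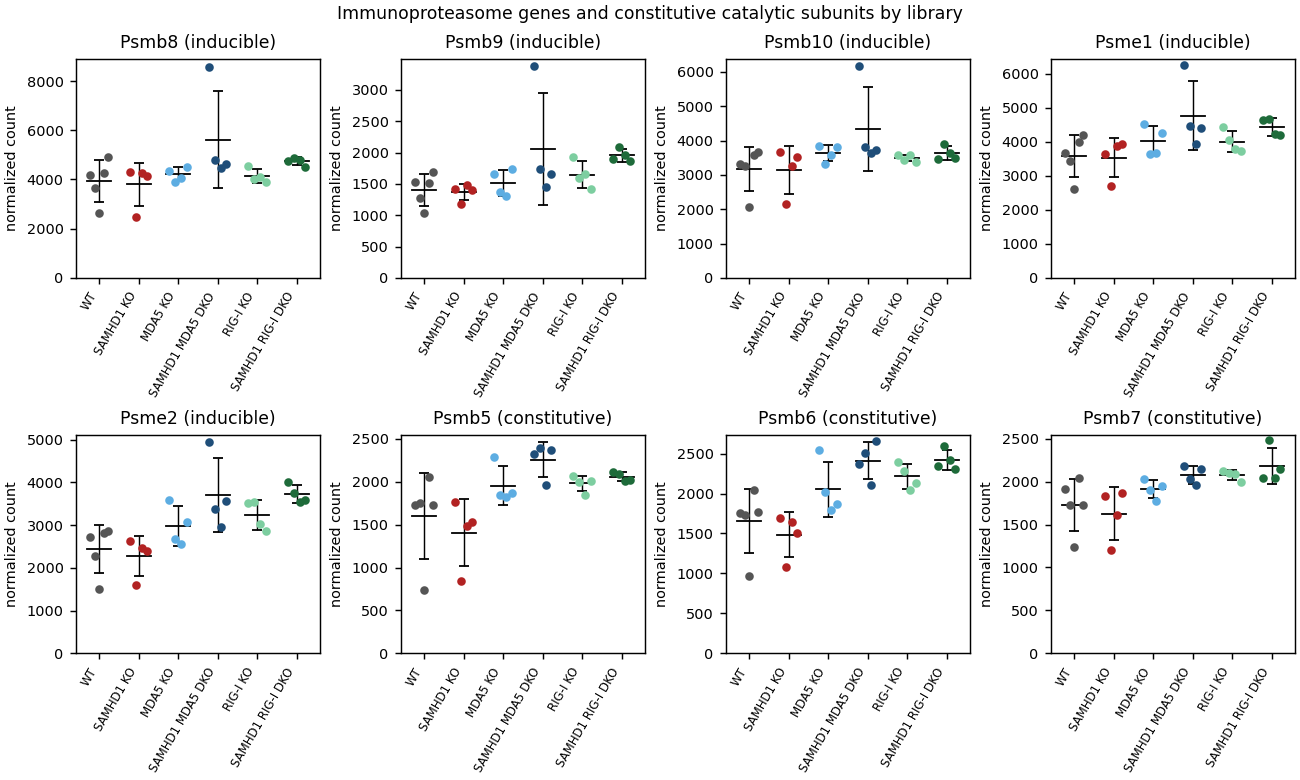
Normalized count (y axis, linear) of the 5 immunoproteasome genes and 3 constitutive catalytic genes by genotype (x axis), with points for libraries, lines for means and bars for the SD. For all 5 immunoproteasome genes SAMHD1 MDA5 DKO 1 is the highest of the 25 libraries, with Psmb8 at 8591.

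In cells without MDA5, again no proteasome gene passed the test for loss of SAMHD1, and the immunoproteasome differences were smaller without 1 library. Psmb8 had normalized counts of 4361, 3885, 4077 and 4512 in MDA5 KO and of 8591, 4809.9, 4475 and 4625 in SAMHD1 MDA5 DKO. The highest MDA5 KO library lay above the lowest double knockout library, and the double knockout library 1 stood far above the rest. Psmb9 (chromosome 17, 34181987 to 34187764, minus strand) encodes the inducible subunit that takes the place of Psmb6. It had counts of 1655, 1364, 1313 and 1732 against 3376, 1739, 1448 and 1659.7. Here the other double knockout libraries fell within or just above the MDA5 KO range. The log2 fold changes were 0.36 for Psmb8 (−0.03 to 0.76), 0.36 for Psmb9 (−0.02 to 0.75), 0.31 for Psme2, 0.23 for Psme1 and 0.22 for Psmb10. Without double knockout library 1 they were 0.14, 0.10, 0.16, 0.09 and 0.04 in the same order. The count of called members was 0 (limma, 0.00755% of all genes; voom 0). At an unadjusted p under 0.05 it was 1, the chaperone gene Psmd9 (log2 fold change 0.22, adjusted p = 0.9994, limma), against 3.96% of all genes.

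Without RIG-I the inducible genes again lay slightly higher in the absence of SAMHD1, without passing the test. Psmb9 had normalized counts of 1930.4, 1588, 1663 and 1413 in RIG-I KO and of 1902, 2095, 1960.2 and 1865 in SAMHD1 RIG-I DKO, and the highest RIG-I KO library overlapped the double knockout range. Psmb8 had counts of 4569, 4005, 4085 and 3905 against 4766, 4891, 4796 and 4518. Its groups overlapped by a single library on each side. The log2 fold changes were 0.25 for Psmb9 (95% interval −0.13 to 0.64), 0.20 for Psme2, 0.20 for Psmb8, 0.15 for Psme1 and 0.05 for Psmb10 (limma). The smallest p-values belonged to Psmd4, a ubiquitin receptor of the regulatory particle (0.12, −0.04 to 0.28), and Psme2b, a near copy of Psme2 with which it may share reads (0.25, −0.10 to 0.60). Called members numbered 0 (0.0679% of all genes), with 0 at an unadjusted p under 0.05 (3.55% of all genes) and 0 by voom.

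Averaged over the 3 backgrounds, the difference with SAMHD1 loss was 0.20 on the log2 scale for Psmb9 (−0.02 to 0.42), 0.17 for Psmb8, 0.14 for Psme2, 0.12 for Psme1 and 0.09 for Psmb10. All 5 lay slightly below 0 in SAMHD1 KO against WT. With 1 library left out at a time, the average ran from 0.11 to 0.24 for Psmb9 and from 0.095 to 0.23 for Psmb8. Both were lowest without SAMHD1 MDA5 DKO 1. The median of the averaged values was 0.14 over the 5 genes and 0.04 over the 30 constitutive genes. Of the 49 members 0 were called (0.74% of all genes; limma and voom). At an unadjusted p under 0.05 there were 2 (7.03% of all genes), Psmd9 at 0.14 (adjusted p = 0.553, limma) and Psme2b at 0.23 (adjusted p = 0.557, limma). An interaction term tested the difference in SAMHD1 loss between cells with and without a sensor. With MDA5 the count of called members was 0 (0.0% of all genes). At an unadjusted p under 0.05 it was 1 (2.78% of all genes), Psmc3ip at 1.18 (adjusted p = 0.980, limma). Psmb8 had 0.42 (−0.13 to 0.96). With 1 library left out at a time the Psmb8 value ran from 0.20 to 0.55 and was lowest without SAMHD1 MDA5 DKO 1. With RIG-I the count of called members was 0 (0.0% of all genes), with 0 at an unadjusted p under 0.05 (2.83% of all genes). Voom called 0 in both interactions. Psmc3ip encodes a meiotic recombination cofactor that binds an ATPase subunit and is no part of the proteasome, and its counts were 11.4 to 74.1 in all libraries.

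SAMHD1 MDA5 DKO 1 was the highest of the 25 libraries for each of the 5 immunoproteasome genes, against 5.92% of all genes. Against the mean of the other libraries of its genotype the 5 genes stood 0.55 to 1.07 higher on the log2 scale, with a median of 0.73. The 30 constitutive genes shifted by −0.12 to 0.16, with a median of 0.03. The same library ranked first for 9 of 13 genes of class I peptide supply. Of these, Tap1, the peptide transporter subunit encoded next to Psmb9, had a normalized count of 5718 against 2429, 2614 and 2331 in its 3 fellow libraries. The class I chaperone genes Canx and Pdia3 ranked 16 and 14 of 25. B cell markers summed to 654 and mast cell markers to 44.7 in that library, and their part in the result was not tested.

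Each inducible catalytic gene was then set against the constitutive gene whose place its product takes, as a log2 ratio per library. The Psmb8 to Psmb5 ratio averaged 1.21 ± 0.04 (SD, n = 4) in SAMHD1 RIG-I DKO, 1.06 ± 0.10 (n = 4) in RIG-I KO and 1.45 ± 0.12 (n = 4) in SAMHD1 KO. The SAMHD1 RIG-I DKO libraries lay above all RIG-I KO libraries and below all SAMHD1 KO libraries. The difference was 0.14 from RIG-I KO and −0.24 from SAMHD1 KO, each with p = 0.0286 in a two-sided exact permutation test, the smallest p that 4 against 4 libraries allow, and an adjusted p of 0.15 over the 21 ratio tests. The Psmb9 to Psmb6 ratio was −0.31 in SAMHD1 RIG-I DKO and −0.10 in SAMHD1 KO, and the Psmb10 to Psmb7 ratio 0.74 and 0.94, with the same exact permutation p of 0.0286 and adjusted p of 0.15. No ratio passed the correction: 0 of 21 did, and 4 had an unadjusted p under 0.05. These 4 were all at 0.0286, the floor for 4 against 4 libraries, and could hardly have passed over 21 tests. Their failure to pass is therefore no evidence that the ratios are alike. In SAMHD1 MDA5 DKO the ratios moved with library 1, where Psmb9 exceeded Psmb6 by 0.51 on the log2 scale while the other 3 libraries lay between −0.68 and −0.53. The Psmb8 to Psmb5 ratio of that genotype differed from SAMHD1 KO by −0.18 (exact permutation p = 0.486, adjusted p = 0.72) and by −0.39 without library 1. The Psmb9 to Psmb6 ratio differed by −0.21 (exact permutation p = 0.514, adjusted p = 0.72) and by −0.48 without it. Against MDA5 KO the same ratios differed by 0.15 and 0.13, and by −0.05 and −0.15 without library 1, so their direction there depended on that library.

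**Figure D2:**
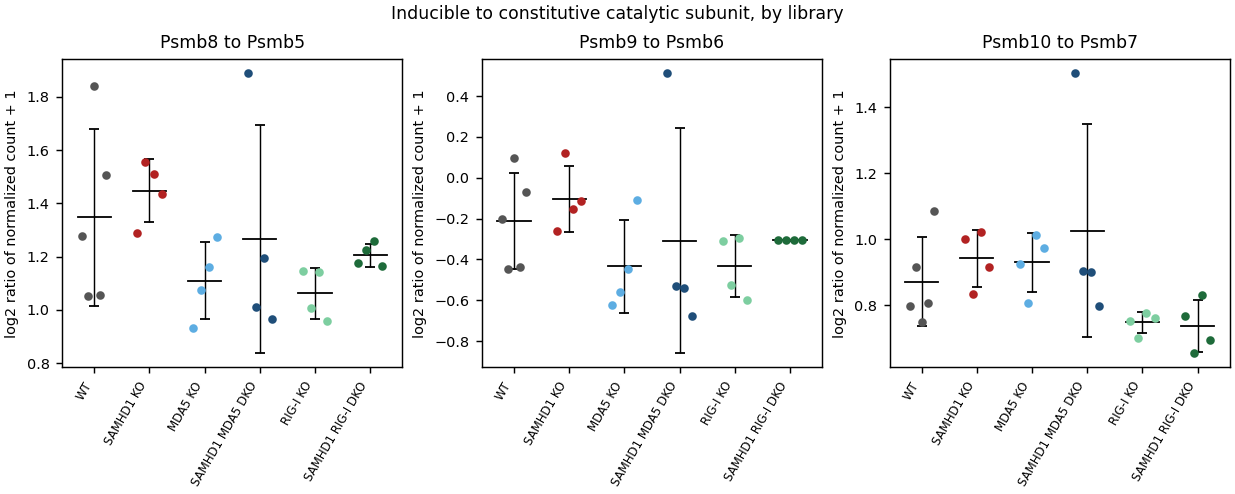
Log2 ratio of each inducible catalytic gene to its constitutive counterpart (y axis, log2 ratio of normalized count + 1) by genotype, with points for libraries, lines for means and bars for the SD. SAMHD1 MDA5 DKO 1 lies far above its genotype in all 3 panels, and the 4 SAMHD1 RIG-I DKO libraries lie close together.

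Among the comparisons fitted here, which did not include the double knockouts against WT, SAMHD1 RIG-I DKO against SAMHD1 KO had the most called proteasome genes. Of these, 10 belonged to the 14 core genes and 1 to the 5 immunoproteasome genes, and the difference between the groups of genes was not tested. Psmg4 (chromosome 13, 34162964 to 34178173, plus strand), a chaperone of core particle assembly, had normalized counts of 257, 139.8, 234 and 173 in SAMHD1 KO and of 442, 499, 371 and 379 in SAMHD1 RIG-I DKO. All double knockout libraries exceeded all SAMHD1 KO libraries, and Psmg4 rose 2.14-fold (log2 fold change 1.10, SE 0.21, adjusted p = 0.0074, limma). Psmb6 (chromosome 11, 70525367 to 70527858, plus strand), the constitutive caspase-like-site subunit, had counts of 1699, 1082, 1645 and 1512 against 2349, 2592, 2422 and 2308, again without overlap. It rose by 0.72 on the log2 scale (SE 0.17, adjusted p = 0.0167, limma). Psma6, an alpha ring subunit, had counts of 2529.6, 1255, 2389 and 2347 against 4158, 4461, 3474 and 3789. Its groups did not overlap, and it rose by 0.94 (SE 0.28, adjusted p = 0.0354, limma), the largest change in the core.

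In this comparison 18 of the 49 members (36.7%) were called, 17 higher and 1 lower, against 10.5% of all genes called, 5.62% higher and 4.85% lower. Voom called 19, of which 18 were shared. The 14 core genes had 10 called, all higher, and a median log2 fold change of 0.59, against −0.04 for all genes. All 14 had libraries that did not overlap, and over all members 28 did so higher (10.4% of all genes) and 2 lower (8.28%). The core calls beside Psmb6 and Psma6 were Psma5 (0.84, adjusted p = 0.0273), Psma7 (0.78, adjusted p = 0.0431), Psma3 (0.64, adjusted p = 0.0275), Psma2 (0.63, adjusted p = 0.0217) and Psma4 (0.48, adjusted p = 0.0395) of the alpha ring, and Psmb4 (0.58, adjusted p = 0.0353), Psmb2 (0.52, adjusted p = 0.0211) and Psmb7 (0.44, adjusted p = 0.0354) of the beta ring (limma). Psmb5, the constitutive chymotrypsin-like-site subunit (chromosome 14, 54614119 to 54618022, minus strand), had a difference of 0.60 (adjusted p = 0.0852, limma) that did not pass. Psmb7 (chromosome 2, 38588036 to 38644087, minus strand) carries the trypsin-like site.

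Regulatory particle genes were called in both directions. Of the 16, 5 were called, 4 higher and 1 lower, with a median of 0.18. The ATPase genes Psmc6 (0.47, adjusted p = 0.0179) and Psmc3 (0.44, adjusted p = 0.0366), the ubiquitin receptor gene Psmd4 (0.31, adjusted p = 0.0211) and the lid gene Psmd13 (0.59, adjusted p = 0.0327) rose (limma). Psmd3, a lid scaffold subunit, had counts of 2527, 2267, 2233 and 2686 in SAMHD1 KO and of 2041, 2175, 2161 and 2029 in SAMHD1 RIG-I DKO. All its double knockout libraries lay below all SAMHD1 KO libraries, and it fell by 0.21 (adjusted p = 0.0448, limma). Of the 7 chaperone genes 2 rose, Psmg4 and Psmd10, which encodes the chaperone gankyrin (0.69, adjusted p = 0.0393, limma).

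Among the immunoproteasome genes 1 of 5 was called, and their median was 0.36. Psme2 (chromosome 14, 55587441 to 55591113, minus strand), the PA28 beta chain, had counts of 2628, 1606, 2477 and 2403 in SAMHD1 KO and of 4022, 3753, 3549 and 3579.8 in SAMHD1 RIG-I DKO. The groups did not overlap, and Psme2 rose 1.66-fold (log2 fold change 0.73, SE 0.18, adjusted p = 0.0212, limma). Its partner Psme1 (chromosome 14, 55578123 to 55581529, plus strand) had counts of 3632, 2701, 3871 and 3952 against 4653, 4679.7, 4247 and 4201, which did not overlap either. The Psme1 difference of 0.34 did not pass (adjusted p = 0.124, limma). Psmb9 differed by 0.52 (adjusted p = 0.0713), Psmb8 by 0.36 (adjusted p = 0.234) and Psmb10 (chromosome 8, 105935735 to 105938444, minus strand; the inducible trypsin-like-site subunit) by 0.23 (adjusted p = 0.411, limma), and none of these passed.

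How many members were called in SAMHD1 RIG-I DKO against SAMHD1 KO depended on single libraries. Leaving out 1 library at a time gave 1 to 17 calls. The count was 4 without SAMHD1 KO 2 (4.05% of all genes called), and 5, 1 and 7 without double knockout library 1, 2 or 4 (3.26%, 1.42% and 3.74%). Without WT 3 and SAMHD1 KO 2 together the count was 23 (16.1%), and with only the 2 genotypes in the fit it was 11 (4.33%), and in these settings the count of members moved in the same direction as the calls over all genes. Psmg4 was called in 18 of 18 alternative settings and Psmc6 in 17. B cell markers (9 of 9 measured) summed to 333 to 4246 normalized counts in SAMHD1 KO and to 71.6 to 93.1 in SAMHD1 RIG-I DKO, and mast cell markers (5 of 7 measured) to 111 to 1280 and 1.19 to 15.3. Of these markers 8 of 9 and 5 of 5 were called lower in SAMHD1 RIG-I DKO (limma). Dendritic cell markers (4 of 7 measured) summed to 795 to 1297 in SAMHD1 KO and to 390.2 to 793 in SAMHD1 RIG-I DKO, with 2 of 4 called lower and a median log2 fold change of −1.72. T cell markers (3 of 8 measured) summed to 26.2 to 63.2 and 11.8 to 15.3, with 0 called, 3 lower at an unadjusted p under 0.05 and a median of −1.45. Macrophage markers had 1 of 9 called lower and a median of −0.07. Neutrophil and eosinophil markers (3 of 8 measured) went the other way, with sums of 42.4 to 65.9 in SAMHD1 KO and 87.1 to 96.3 in SAMHD1 RIG-I DKO. Of these 3 genes 1 was called higher, and the median was 0.44. The part of these markers in the result was not tested.

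**Figure D3:**
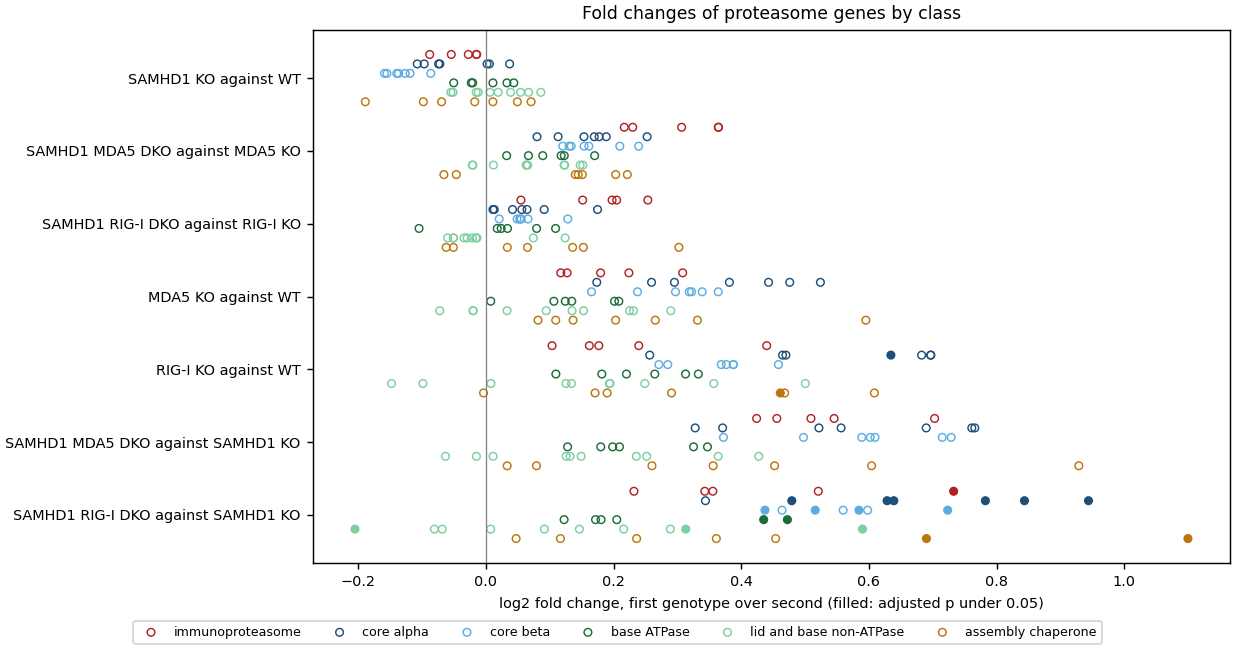
Log2 fold change (x axis) of the immunoproteasome, core, regulatory particle and chaperone genes in 7 comparisons (y axis), with 1 circle per gene and filled circles for an adjusted p under 0.05 (limma). The filled circles lie almost all in SAMHD1 RIG-I DKO against SAMHD1 KO, where the core genes have a median of 0.59.

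SAMHD1 MDA5 DKO was set against the same SAMHD1 KO libraries, so the 2 comparisons share their control. Psmg4 had counts of 393, 391.6, 319 and 393 in SAMHD1 MDA5 DKO, all above the SAMHD1 KO libraries, with a log2 fold change of 0.93 (adjusted p = 0.0696, limma). Psmb6 had 2365, 2512, 2109 and 2652, also without overlap, with 0.71 (adjusted p = 0.0697, limma). These were the smallest adjusted p-values, so 0 of 49 members were called (0.121% of all genes; voom 0). At an unadjusted p under 0.05 there were 32, all higher (13.2% of all genes). Libraries did not overlap and were higher for 24 members (7.73% of all genes), including 13 of the 14 core genes. Median log2 fold changes were 0.60 over the core, 0.19 over the regulatory particle, 0.51 over the immunoproteasome and −0.03 over all genes. Psme2 differed by 0.70 (adjusted p = 0.0789), Psmb8 by 0.55, Psmb9 by 0.51, Psmb10 by 0.46 and Psme1 by 0.42 (limma), and without double knockout library 1 by 0.56, 0.32, 0.24, 0.27 and 0.29. Without WT 3 and SAMHD1 KO 2, 13 members were called, 10 of them core and 1 immunoproteasome (4.05% of all genes). B cell markers summed to 268 to 704 in SAMHD1 MDA5 DKO and mast cell markers to 44.7 to 71.4, the latter below every SAMHD1 KO library. The 9 B cell markers had 0 called, all with a lower fitted value, and a median log2 fold change of −1.03. The 5 mast cell markers also had 0 called, with all 5 lower at an unadjusted p under 0.05 and a median of −2.12. Dendritic cell markers had 0 of 4 called and a median of −0.55. The part of these markers in the result was not tested.

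RIG-I KO differed from WT in 3 of 49 members (4.21% of all genes), 2 higher (1.25%) and 1 lower (2.97%), and voom called 3. The total lay near the share of all genes, so it does not mark out the members as a group. Psmf1 (chromosome 2, 151715812 to 151744186, minus strand), which encodes the proteasome inhibitor PI31, had counts of 869, 929.5, 835, 904 and 963 in WT and of 647, 752, 721 and 803 in RIG-I KO. All RIG-I KO libraries lay below all WT libraries, and Psmf1 fell by 0.30 (SE 0.07, adjusted p = 0.0171, limma). Psma3, an alpha ring subunit, had counts of 1831, 1822, 989, 2033 and 1741 against 2726, 2645, 2433 and 2367. It did not overlap and rose by 0.63 (SE 0.17, adjusted p = 0.0341, limma). Psmg1, an assembly chaperone, had 410.5, 335, 266, 459 and 399 against 504, 535, 459.6 and 529, with the highest WT library just below the lowest RIG-I KO library. It rose by 0.46 (SE 0.13, adjusted p = 0.0421, limma).

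At an unadjusted p under 0.05, RIG-I KO against WT had 25 members (24.5% of all genes), 23 of them higher (11.3%). Libraries did not overlap for 16 members higher (5.8% of all genes) and 2 lower (7.15%). The medians were 0.42 over the core, 0.19 over the regulatory particle and 0.18 over the immunoproteasome. Psme2 differed by 0.44 (adjusted p = 0.125) and Psmb8 by 0.10 (95% interval −0.27 to 0.48, limma). The count of 3 was not stable: it was 0 without RIG-I KO 1, 2 or 3 or without WT 5 (0.589% to 1.12% of all genes called), 1 without RIG-I KO 4 or without WT 2 (1.33% and 1.59%), and 15 without WT 4 (9.46%). B cell markers summed to 133 to 2387 in WT and 65.1 to 87.1 in RIG-I KO, and mast cell markers to 18 to 194 and 0 to 16.7, with 8 of 9 and 4 of 5 called lower in RIG-I KO (limma). Macrophage markers summed to 1010335 to 2080470 in WT and to 2012986 to 2225254 in RIG-I KO, sums that follow mainly Lyz2. Of the 9 macrophage genes 1 was called lower, 6 were lower and 1 higher at an unadjusted p under 0.05, and the median log2 fold change was −0.27. Dendritic cell markers summed to 831 to 1224 in WT and to 543 to 1439 in RIG-I KO, with 2 of 4 called lower and a median of −1.34. T cell markers summed to 13.6 to 102 and 9.01 to 13.8, with 0 of 3 called, 2 lower at an unadjusted p under 0.05 and a median of −1.22. Neutrophil and eosinophil markers had 0 of 3 called, 1 higher at an unadjusted p under 0.05 and a median of 0.29. The part of these markers in the result was not tested. Over all libraries neutrophil and eosinophil markers (3 of 8 measured) stayed at or below 96.3, and the dendritic cell marker Flt3 was at 0 in 6 libraries.

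MDA5 KO against WT had 0 called members (0.0679% of all genes; voom 0). At an unadjusted p under 0.05 there were 6, all higher (2.78% of all genes): Psmg4 (0.60), Psma5 (0.48), Psma3 (0.38), Psmb6 (0.34), Psmg1 (0.27) and Psmd6 (0.22), each with an adjusted p of 0.850 (limma). Psmg4 was the only member whose libraries did not overlap (0.445% of all genes higher), with 282 to 444 in MDA5 KO and 123 to 272 in WT. The core median was 0.32 with all libraries and 0.11 without WT 3 and SAMHD1 KO 2.

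Core, regulatory and inducible genes were averaged in each library to set the 6 genotypes side by side, and differences between the groups of genes were not tested. The mean log2 level of the 14 core genes was 10.91 ± 0.46 (SD, n = 5) in WT and 10.82 ± 0.32 (n = 4) in SAMHD1 KO. Among MDA5 KO libraries it was 11.24 ± 0.18, and RIG-I KO libraries had 11.37 ± 0.08. Of the double knockouts, the one without MDA5 had 11.40 ± 0.16 and the one without RIG-I 11.43 ± 0.07, with n = 4 in each of these genotypes. The group means of the immunoproteasome ran from 11.35 in SAMHD1 KO to 11.88 in SAMHD1 MDA5 DKO, and those of the regulatory particle from 10.84 to 11.04. The immunoproteasome mean exceeded the constitutive mean by 0.52 in WT and in SAMHD1 KO, by 0.50 in MDA5 KO and by 0.43 in RIG-I KO. For SAMHD1 MDA5 DKO the excess was 0.67 ± 0.37, and for SAMHD1 RIG-I DKO it was 0.57 ± 0.02. A moderated F test over the 6 genotypes called 15 of 49 members (9.87% of all genes, limma), and Psmg4, Psmf1, Psma3, Psmb6 and Psmb2 were called in all 34 alternative settings.

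**Figure D4:**
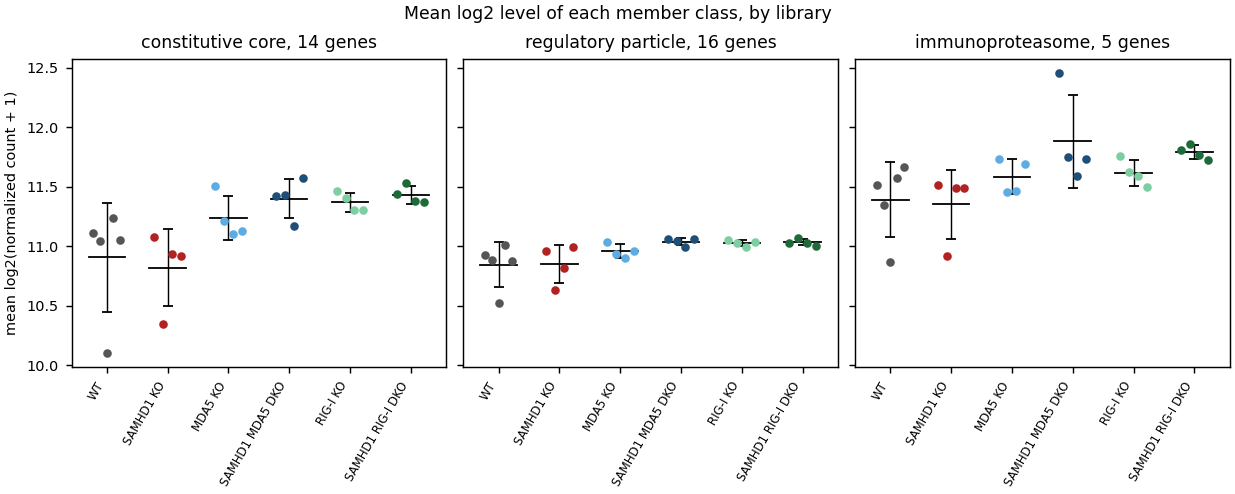
Mean log2(normalized count + 1) (y axis) of the 14 core, 16 regulatory particle and 5 immunoproteasome genes in each library, by genotype, with points for libraries, lines for means and bars for the SD. The lowest core values belong to WT 3 and SAMHD1 KO 2, and the highest immunoproteasome value to SAMHD1 MDA5 DKO 1.

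The libraries that stood apart were low for most proteasome genes. For 42 of 49 members (85.7%, against 28.5% of all genes) the lowest of the 25 libraries was WT 3 or SAMHD1 KO 2, WT 3 for 37 and SAMHD1 KO 2 for 5. Against the other WT libraries, WT 3 was shifted by −0.93 on the log2 scale over the core, −0.43 over the regulatory particle and −0.68 over the immunoproteasome, and by −0.04 over all genes (medians). SAMHD1 KO 2 was shifted by −0.61, −0.30, −0.64 and −0.03. Psme3, the nuclear PA28 gamma activator, Psme4, the PA200 activator, and Psmf1 had their lowest value in other libraries (0 of 3). The median SD within genotypes was 0.276 for the immunoproteasome genes, 0.259 for the core and 0.133 for the regulatory particle, and 0.191, 0.126 and 0.0864 without those libraries.

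In both double knockouts against SAMHD1 KO the differences went with coding length, a feature that the choice of members did not use. In SAMHD1 RIG-I DKO against SAMHD1 KO the 32 members with a coding length under 1000 bases had a median log2 fold change of 0.49, and the 17 longer members 0.17. Over all genes the same split gave 0.16 for 3777 short genes and −0.10 for 7970 long genes. The Spearman correlation of coding length with log2 fold change was −0.674 over the 49 members and −0.363 over all 11747 genes with a length, and −0.681 and −0.437 in SAMHD1 MDA5 DKO against SAMHD1 KO. In SAMHD1 KO against WT it had the opposite sign, 0.465 and 0.139. It was negative in the other comparisons too, such as −0.630 and −0.345 in SAMHD1 MDA5 DKO against MDA5 KO, where no member was called. Genes are not independent replicates, so these are descriptions. Of the short members 13 were called higher in SAMHD1 RIG-I DKO, against 15.3% of all short genes. The part of length in the result was not tested.

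**Figure D5:**
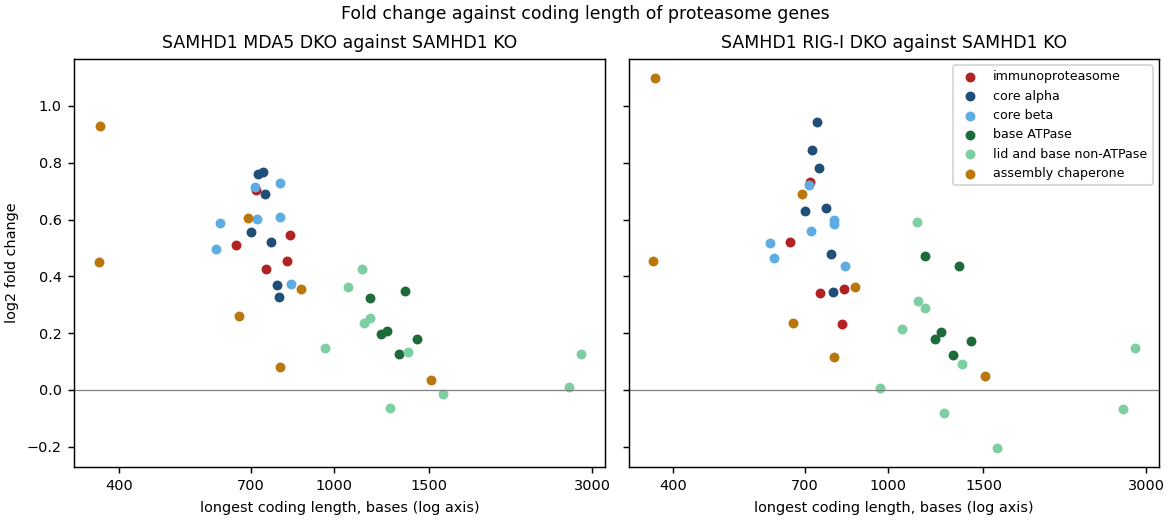
Log2 fold change (y axis) against coding length in bases (x axis, log scale) in both double knockouts against SAMHD1 KO. The immunoproteasome, core, regulatory particle and chaperone genes are drawn, and the remaining members are not. Shorter members lie higher, with Spearman correlations over all 49 members, drawn or not, of −0.674 for SAMHD1 RIG-I DKO and −0.681 for SAMHD1 MDA5 DKO.

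The alternative activators and the inhibitor had small differences for SAMHD1 loss, none of them called. Averaged over the 3 backgrounds, the log2 fold change was −0.04 for Psme3 (95% interval −0.14 to 0.06), −0.01 for Psme4 (−0.11 to 0.09) and 0.00 for Psmf1 (−0.08 to 0.09, limma). In SAMHD1 RIG-I DKO against SAMHD1 KO, Psmf1 had −0.20 (adjusted p = 0.0673), Psme3 −0.16 (adjusted p = 0.205) and Psme4 −0.09 (adjusted p = 0.504, limma). Psme2b had 0.51 in the same comparison (adjusted p = 0.0555, limma).

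Genes of the pathway outside the named symbols were given by 2 lists. Of 22 proteasome cofactors, assembly and regulator genes 21 were tested, and 0 were called for averaged SAMHD1 loss, where the smallest p-values belonged to Usp14, a proteasome-bound deubiquitinase (−0.08), Ubb, a polyubiquitin gene (0.11), and Rad23b, a shuttle receptor (−0.06). In SAMHD1 RIG-I DKO against SAMHD1 KO 2 of the 21 rose (5.62% of all genes), Sem1, a small lid subunit (0.57, adjusted p = 0.0214), and Pomp, the core maturation factor (0.60, adjusted p = 0.0303, limma). In the same comparison 3 fell (4.85% of all genes), the shuttle factor genes Ubqln4 (−0.39, adjusted p = 0.0346) and Ubqln2 (−0.34, adjusted p = 0.0470) and the ubiquitin receptor gene Adrm1 (−0.21, adjusted p = 0.0435, limma). Of 13 genes of class I peptide supply, 0 were called for averaged SAMHD1 loss and 5 were higher at an unadjusted p under 0.05 (7.03% of all genes in either direction), among them Tap1 (0.29) and B2m, the class I light chain (0.20). In RIG-I KO against WT 1 of the 13 fell (2.97% of all genes), the peptide-loading factor gene Tapbp (−0.51, adjusted p = 0.0200, limma), and in SAMHD1 RIG-I DKO against SAMHD1 KO 0 were called.

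Within genotypes both inducible and constitutive catalytic genes varied together from library to library. Over the 10 pairs examined, r ran from 0.471 for Psmb9 and Psmb6 to 0.967 for Psmb8 and Psmb10, with permutation p-values adjusted over the pairs of at most 0.0172 for r and 0.0173 for rho. After subtracting genotype means, Psmb8 and Psmb9, which lie in the same gene cluster, had Pearson r = 0.896 and Spearman rho = 0.906 over 25 libraries (permutation p = 1e-05 for each, the smallest the permutations can give; adjusted p = 2.5e-05 and 2e-05). Without the 2 libraries farthest from the median of Psmb8, r was 0.901. For this and the other values without the farthest libraries, genotype means were still taken over all 25 libraries. Psme1 and Psme2 had r = 0.958 and rho = 0.908 (permutation p = 1e-05 for each, adjusted p = 2.5e-05 and 2e-05), and r = 0.929 without the farthest libraries. Psmb9 and Tap1 had r = 0.847 (permutation p = 0.00176, adjusted p = 0.0022) and rho = 0.808 (permutation p = 0.00038, adjusted p = 0.000475), and r = 0.720 without the farthest libraries. Psmb8 and Psmb5 had r = 0.708 (permutation p = 0.0116, adjusted p = 0.0128) and rho = 0.618 (permutation p = 0.00731, adjusted p = 0.00812). Their r was 0.769 without the farthest libraries. It was 0.251 without WT 3, SAMHD1 KO 2 and SAMHD1 MDA5 DKO 1 together, where Psmb8 and Psmb9 had 0.880. With those 3 libraries left out, genotype means were taken again over the remaining libraries. The values without the farthest libraries are therefore not directly comparable with them. The constitutive pair Psmb5 and Psmb6 had r = 0.955 (permutation p = 2e-05, adjusted p = 3.33e-05) and rho = 0.905 (permutation p = 3e-05, adjusted p = 5e-05), and r = 0.869 without the same 3 libraries. Without those libraries r was 0.716 for Psmb8 and Psmb10, 0.659 for Psmb9 and Psmb10, 0.557 for Psmb10 and Psmb7 and 0.476 for Psmb9 and Psmb6.

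In the authors' deposited table, SAMHD1 RIG-I DKO was called higher than SAMHD1 KO for 18 members and lower for 2 (15% of all genes called), and in the authors' deposited table SAMHD1 MDA5 DKO was higher for 13 and lower for none (6.62%). For Psmg4 the authors' deposited table gave log2 fold changes of SAMHD1 KO over the double knockout of −1.07 (adjusted p = 6.83e-05, SAMHD1 RIG-I DKO) and −0.90 (adjusted p = 0.00574, SAMHD1 MDA5 DKO), and for Psme2 it gave −0.71 (adjusted p = 0.0038) and −0.70 (adjusted p = 0.0179). In the authors' deposited table RIG-I KO differed from WT for 9 members, 8 higher and 1 lower (8.85% of all genes). Against WT, the authors' deposited table called SAMHD1 RIG-I DKO higher for 20 members and lower for 2 (16.1% of all genes), more than in its other comparisons, and SAMHD1 MDA5 DKO higher for 3 and lower for none (1.76%). By the authors' deposited table, no members differed between SAMHD1 KO and WT (0.196%) or MDA5 KO and WT (0.158%).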

How the data were processed

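Expression was measured by RNA-seq of total RNA (RNeasy kit, per the labels' protocols) in 25 libraries. The authors deposited log2 values, 1 column per library, and normalized signal means per genotype, with fold changes and p-values per comparison. Upstream, 2 accounts exist: per the submitters' processing notes the tools were Salmon, STAR, DESeq2 and R 4.1.2 on GRCm38 (mm10); per the labels' protocols reads were aligned by pBWA (0.5.9-r32-MPI-patch2) and summed over Ensembl Gene 61 by bedtools (2.16.2). No source used here says which account made these columns.

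The deposited log2 values behaved as a variance-stabilizing transform with a floor of 5.81, and inverting it gave normalized counts whose group means equalled the deposited signal means within a relative difference of 4.69e-14. Dividing by the value of 1 read gave whole reads for 100% of values (tolerance 0.01). The test had been planned for either counts or log2 values; since the values used here are on a log2 scale, limma 3.58.1 (trend, robust; R 4.3.3, statmod 1.5.0) was run on log2(normalized count + 1), with all 25 libraries in 1 fit. Genes with at least 10 normalized counts in at least 4 libraries were tested (13252 genes, all 49 members), with Benjamini-Hochberg adjustment and a threshold of 0.05. The fit was tested on simulated data with 200 changed genes and noise drawn separately for each gene. For SAMHD1 KO against WT it recovered 53.7% of genes changed 1.5-fold and 71.6% of those changed 2-fold. The simulation held no shifts shared by many genes of 1 library, such as those of WT 3 and SAMHD1 KO 2. It also held more changed genes than the 2 called in that comparison, which eases the adjusted threshold. These rates are therefore not the chance of finding a change among the members. Folds are on the log2(normalized count + 1) scale. Ratios used exact permutation tests, and covariation 100000 permutations within genotypes. Tables and descriptions used Python 3.11.15, pandas 2.3.3 and numpy 2.4.6. Positions and coding lengths came from GENCODE vM21 (GRCm38), promoters from RefSeq GRCm38.p6. Table columns gave the genotype and a code that no label explains, so libraries were numbered in column order.

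Genes were named by rule: the immunoproteasome genes and their constitutive partners, Psme3, Psme4 and Psmf1, every called member, the pair with the smallest p in each comparison, the extremes per coding length, and, in each pathway list, the few smallest p-values for averaged SAMHD1 loss. Other genes named (Tap1 and the other genes of SAMHD1 MDA5 DKO 1, and pathway genes called elsewhere) were chosen after their values were seen. The members and lists were chosen with earlier results of these data known. Lists were the macrophage, B cell, T cell, mast cell, neutrophil and eosinophil, and dendritic cell markers, the cofactors and the class I genes. 1 gene is not reported here. Alternatives were voom, another pseudocount, no filter, other scalings, the authors' log2 values, fewer genotypes and left-out libraries.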

Additional observations from a re-analysis of the deposited data

Results flagged for a closer look

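Values in which the highest or lowest library of a genotype stood far from the others, by the gap to its nearest neighbour relative to the range of the group, are given here in normalized counts. Of 204 groups examined over 31 genes, 33 values met this rule, and chance alone flags about 1 in 20 groups. Low values of WT 3 made up 13 of them: Psma2 1336, Psma3 989, Psma4 1071, Psma5 717, Psma6 921, Psma7 1467, Psmb10 2072, Psmb4 2176, Psmb5 738, Psmb6 973, Psmc3 2036, Psmd13 925 and Psmg4 123. SAMHD1 KO 2 was low for Psma2 at 1438, Psma6 at 1255, Psmb8 at 2482 and Psmd10 at 377.

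SAMHD1 MDA5 DKO 1 was high for Psmb8 at 8591, Psmb9 at 3376 and Psmb10 at 6168. In the same library the log2 ratio of Psmb9 to Psmb6 was 0.51, against −0.53 in the next library, and that of Psmb10 to Psmb7 was 1.5, against 0.90. MDA5 KO 1 was high for Psma3 at 3007, Psma5 at 2606, Psmb2 at 1923, Psmb5 at 2287 and Psmd9 at 558. SAMHD1 MDA5 DKO 3 was low for Psmb5 at 1956 and Psmg4 at 319. The single remaining values were Psma2 at 3416 in SAMHD1 RIG-I DKO 2, Psmc3ip at 74.1 in WT 1, Psmd3 at 2505 in WT 4 and Psmd4 at 1896 in MDA5 KO 4.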

How the results depend on the processing

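No paired analysis was possible because the columns of the deposited table carry no replicate numbers of the labels. Each main count, median and ratio was paired with each alternative setting that applied to it. Leaving aside single left-out libraries, 303 of these pairs kept their direction and size and 9 moved, and the cause was not tested. The 303 include counts of called members that were 0 and stayed 0. All 9 were counts of called members, and every count above 0 moved in some setting. In RIG-I KO against WT the count of 3 called members (4.21% of all genes called) became 16 when libraries were scaled to total reads (7.61%), 0 with only the genotypes compared (0.00785%), 14 without WT 3 and SAMHD1 KO 2 (15.8%), and 10 without SAMHD1 KO 2 and SAMHD1 MDA5 DKO 3 (7.47%), whose Samhd1 was intermediate. In SAMHD1 MDA5 DKO against SAMHD1 KO the count of 0 became 2 when scaled to total reads (0.362% of all genes), which moved the median of all genes from −0.03 to −0.10, and 13 without WT 3 and SAMHD1 KO 2 (4.05%). In SAMHD1 RIG-I DKO against SAMHD1 KO 18 (10.5% of all genes) became 11 with only the genotypes compared (4.33%) and 4 without those of intermediate Samhd1 (4.19%). Over the 6 genotypes the count of 15 (9.87% of all genes) became 24 without WT 3 and SAMHD1 KO 2 (22.1%).

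Values near 0 changed sign. In SAMHD1 KO against WT, without the libraries of intermediate Samhd1, the log2 fold changes were 0.16 for Psmb10, 0.14 for Psmb8, 0.043 for Psmb9, 0.11 for Psme1 and 0.072 for Psme2. Scaled to total reads they were 0.020 for Psmb10, 0.0071 for Psmb9 and 0.020 for Psme1, and without WT 3 and SAMHD1 KO 2 they were 0.014 for Psmb10 and 0.0035 for Psmb8. Without the last pair Psmb8 was −0.0078 in MDA5 KO against WT and −0.031 in RIG-I KO against WT. The interaction with RIG-I for Psmb10 was −0.11 without the libraries of intermediate Samhd1.

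Leaving out 1 library at a time gave 0 to 15 called members in RIG-I KO against WT, 0 to 1 in SAMHD1 MDA5 DKO against SAMHD1 KO, 1 to 17 in SAMHD1 RIG-I DKO against SAMHD1 KO and 6 to 24 over the 6 genotypes, 24 without WT 3 and 6 without SAMHD1 RIG-I DKO 1 or 2. The immunoproteasome minus constitutive median ran from −0.018 to 0.25 in SAMHD1 MDA5 DKO against MDA5 KO, −0.061 to 0.26 against SAMHD1 KO and −0.022 to 0.31 in the interaction with MDA5. Over the same libraries the log2 ratio difference in SAMHD1 MDA5 DKO against MDA5 KO ran from −0.054 to 0.25 for Psmb8 to Psmb5, −0.15 to 0.25 for Psmb9 to Psmb6 and −0.063 to 0.17 for Psmb10 to Psmb7, and against SAMHD1 KO from −0.39 to −0.084, −0.48 to −0.083 and −0.075 to 0.16 in the same order. In SAMHD1 RIG-I DKO set beside RIG-I KO the Psmb10 to Psmb7 difference ran from −0.042 to 0.017. Each low end in SAMHD1 MDA5 DKO came without its library 1. In SAMHD1 KO against WT the range was −0.16 to 0.16 for Psmb10, −0.19 to 0.14 for Psmb8, −0.13 to 0.043 for Psmb9, −0.12 to 0.11 for Psme1 and −0.25 to 0.072 for Psme2. For Psmb8 it was −0.0078 to 0.22 in MDA5 KO against WT and −0.031 to 0.19 in RIG-I KO against WT, and for Psmb10 in the RIG-I interaction −0.11 to 0.22.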
